A study of Caenorhabditis elegans with 8 samples.

Results

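The genes described here make the polyunsaturated and branched-chain fatty acids of Caenorhabditis elegans: 7 fatty acid desaturase genes (fat-1 to fat-7) and 3 fatty acid elongase genes (elo-1, elo-2 and elo-5). They are a list of named genes of this pathway, and the rule for finding them on the array sets no threshold on treatment or strain differences, although the list was drawn up with earlier results of these data known. Each of the 10 was found on the array through the platform annotation as a feature with exactly 1 gene symbol. Each had 1 such feature and shared no feature with another gene, so they are 10 of 25478 genes with 1 symbol and 10 of 27792 features. The study took RNA of whole worms from 4 strains, each under 2 RNAi treatments, and measured it on 8 single-colour Affymetrix Gene 1.0 ST arrays, so that each of the 8 groups has 1 array and no replicate. The worms were fed bacteria for RNAi of ash-2, a core component of the H3K4 methyltransferase complex, which marks histone H3 at active promoters, or control RNAi bacteria, for 3 days from the egg to the young adult, and strains were kept at 20 °C. Per the labels, VP303 is the strain for intestinal RNAi, NR350 for muscle, TU3401 for neurons, and N2, the wild type, for RNAi throughout the animal.

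Alleles are not given in the labels. By common knowledge of these strains, VP303 and NR350 lack a working rde-1, the Argonaute needed for RNAi, and regain it from the intestinal nhx-2 promoter (VP303, with a rol-6 marker) or the muscle hlh-1 promoter (NR350, with a sur-5 marker). TU3401 lacks a working sid-1, the channel that imports double-stranded RNA, and expresses it from the neuronal unc-119 promoter. Each is a transgenic line, and the RNA holds all tissues of the animal, whichever tissue the RNAi acts in. No label names separate cultures, so p-values measure only the spread between these arrays, which may be technical. The ash-2 signal went against a knockdown: it was 233, 269, 198 and 183 on the arrays labelled ash-2 of VP303, NR350, TU3401 and N2, against 148, 146, 122 and 150 on their control arrays. The treated arrays are therefore called the arrays labelled ash-2, and each direction of response rests on those labels. Array medians lay between 21.1 and 21.6, the lowest intensity was 18.01, and 31.3% of features had a mean intensity above 32. Values near the lower end of this scale are compressed, which limits what can be seen for fat-5 and, in part, fat-7.

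As background, C. elegans makes all its polyunsaturated fatty acids from saturated ones. FAT-5, FAT-6 and FAT-7 place the initial unsaturated bond in palmitic or stearic acid, FAT-2 turns oleic acid into linoleic acid, FAT-1 turns linoleic into alpha-linolenic acid, and FAT-3 and FAT-4, with the elongase ELO-1 between them, lead on to arachidonic and eicosapentaenoic acid. ELO-2 lengthens palmitic acid, and ELO-5 makes branched-chain fatty acids that larvae need to grow. The intestine is a main site of this synthesis, and SBP-1 (the SREBP factor), MDT-15 and the nuclear receptors NHR-49 and NHR-80 are known activators of the desaturase genes. Earlier work on H3K4 methylation in worms linked the ash-2 complex to monounsaturated fatty acids, which gives the treatment comparison its question for these genes.

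No gene of the 10 passed the limma test between the arrays labelled ash-2 and the control arrays, and the mean differences were small. The means ran from -0.12 for elo-1 to 0.08 for elo-5 on the log2 scale. The smallest adjusted p of limma was 0.736, for elo-1, and 0 of the 10 passed even at an unadjusted p under 0.05, where 7.99% of all features did (adjusted, 0% of features passed). Of the 95% intervals of the mean differences, the most distant bound was that of fat-3, at a 1.26-fold difference. These intervals describe the measured differences between these arrays. Since the ash-2 signal went against a knockdown, they do not bound a response to loss of ash-2. For fat-5 and, in part, fat-7 they hold for compressed values. For all 10 genes the values on the 4 arrays labelled ash-2 overlapped those on the 4 control arrays; 2.37% of all features showed no overlap.

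**Figure D1:**
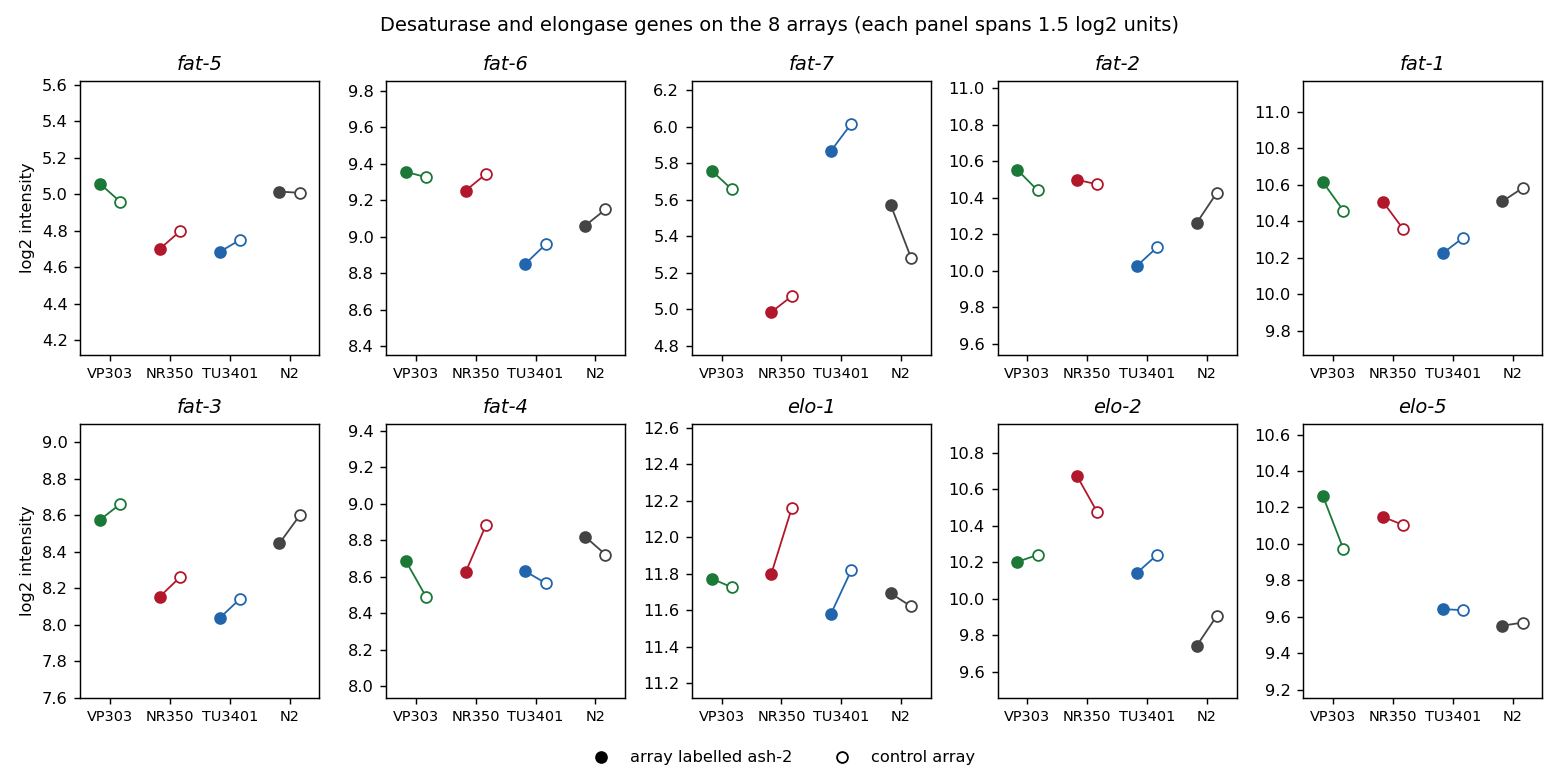
Log2 intensity of each of the 10 genes on the 8 arrays, with 1 panel per gene, the arrays labelled ash-2 as filled points left of the control arrays as open points, and lines joining the arrays of a strain. Panels all span 1.5 log2 units but differ in level, which depends on the probes and is not compared between genes; the strain positions of fat-7, elo-2 and elo-5 differ more than the paired points do.

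The desaturases of the monounsaturated fatty acids, FAT-5, FAT-6 and FAT-7, were measured at different distances from the lower end of the scale. fat-5, which acts mainly on palmitic acid, had intensities of 33.3, 26.0, 25.7 and 32.3 on the arrays labelled ash-2 of VP303, NR350, TU3401 and N2, against 31.1, 27.8, 26.9 and 32.2 on the control arrays. These values sit near the lower end, and the strains differed more than the treatments did. The mean log2 difference was -0.014 ± 0.088 (SD, n = 4 strains).

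fat-6, which turns stearic into oleic acid, had 655, 609.6, 462 and 534 on the arrays labelled ash-2, against 642, 649, 497 and 568 on the control arrays of VP303, NR350, TU3401 and N2. It was lower on the array labelled ash-2 in 3 strains and 1.02-fold higher in VP303, and TU3401 was lowest under both treatments. Its mean log2 difference was -0.06 ± 0.06 (SD, n = 4).

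fat-7, which has the same substrate as fat-6, had 54.2, 31.6, 58.4 and 47.5 on the arrays labelled ash-2, against 50.4, 33.6, 64.8 and 38.8 on the control arrays. The NR350 arrays were lowest and the TU3401 arrays highest under both treatments, and the treatment difference was positive in VP303 (0.10) and N2 (0.29) and negative in NR350 (-0.09) and TU3401 (-0.15). The mean was 0.04 ± 0.20 (SD, n = 4). fat-6 and fat-7 encode closely related enzymes, and probe sequences were not used here, so signal of either gene on the feature of the other was not tested. No other feature lay within 0.05 of either on all arrays. That check cannot see partial cross-signal between features with mean intensities of 577 (fat-6) and 47.4 (fat-7). Their order of strains differed.

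The next desaturases in the pathway showed equally small differences. fat-2, whose enzyme makes linoleic acid, had 1502, 1447, 1042 and 1227 on the arrays labelled ash-2 of VP303, NR350, TU3401 and N2, against 1389, 1422, 1119 and 1378 on the control arrays. The array labelled ash-2 was the higher one in VP303 and NR350 and the lower one in TU3401 and N2. fat-1, whose enzyme makes alpha-linolenic acid, had 1567, 1457, 1196 and 1457 on the arrays labelled ash-2, against 1407, 1313, 1268 and 1534 on the control arrays, with the same pattern of signs. Their mean log2 differences were -0.03 ± 0.13 for fat-2 and 0.04 ± 0.13 for fat-1 (SD, n = 4).

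fat-3, which takes linoleic acid on toward the longer polyunsaturated acids, was the gene with the most even difference. It had 382, 285, 263 and 349 on the arrays labelled ash-2 of VP303, NR350, TU3401 and N2, against 405, 307, 283 and 388 on the control arrays. The array labelled ash-2 was lower in 4 of 4 strains, with log2 differences of -0.09, -0.11, -0.11 and -0.15 and a mean of -0.11 ± 0.03 (SD, n = 4), which did not pass the limma test (adjusted p = 0.806). It was the only gene of the 10 (1 of 10) with the same sign in all 4 strains, as were 16.1% of all features.

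fat-4, which forms arachidonic acid, had 412, 394, 396 and 452 on the arrays labelled ash-2, against 359, 472, 379 and 422 on the control arrays. NR350 was the exception in sign: the log2 difference was -0.26 there and 0.20, 0.06 and 0.10 in VP303, TU3401 and N2. The mean was 0.03 ± 0.20 (SD, n = 4).

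elo-1, which lengthens the product of FAT-3, had 3502, 3566.5, 3067 and 3309 on the arrays labelled ash-2 of VP303, NR350, TU3401 and N2, against 3387, 4569, 3617 and 3149 on the control arrays. The NR350 control array stood above the other 7 arrays. The log2 difference was 0.05 in VP303 and 0.07 in N2 but -0.36 in NR350 and -0.24 in TU3401, and the mean was -0.12 ± 0.21 (SD, n = 4). The NR350 difference, 1.28-fold lower on the array labelled ash-2, was the largest of the 10 genes in any strain.

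elo-2, which lengthens palmitic to stearic acid, had 1178, 1632, 1129 and 856 on the arrays labelled ash-2, against 1209.6, 1422, 1209.9 and 960.4 on the control arrays. Only in NR350 was the array labelled ash-2 the higher one (0.20), and the mean was -0.03 ± 0.16 (SD, n = 4). elo-5, which makes branched-chain fatty acids, had 1227, 1136, 799.5 and 750.4 on the arrays labelled ash-2, against 1005, 1100.4, 796 and 759 on the control arrays. Its difference in VP303 (0.29, 1.22-fold) exceeded those in NR350 (0.05), TU3401 (0.01) and N2 (-0.02), and the mean was 0.08 ± 0.14 (SD, n = 4).

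**Figure D2:**
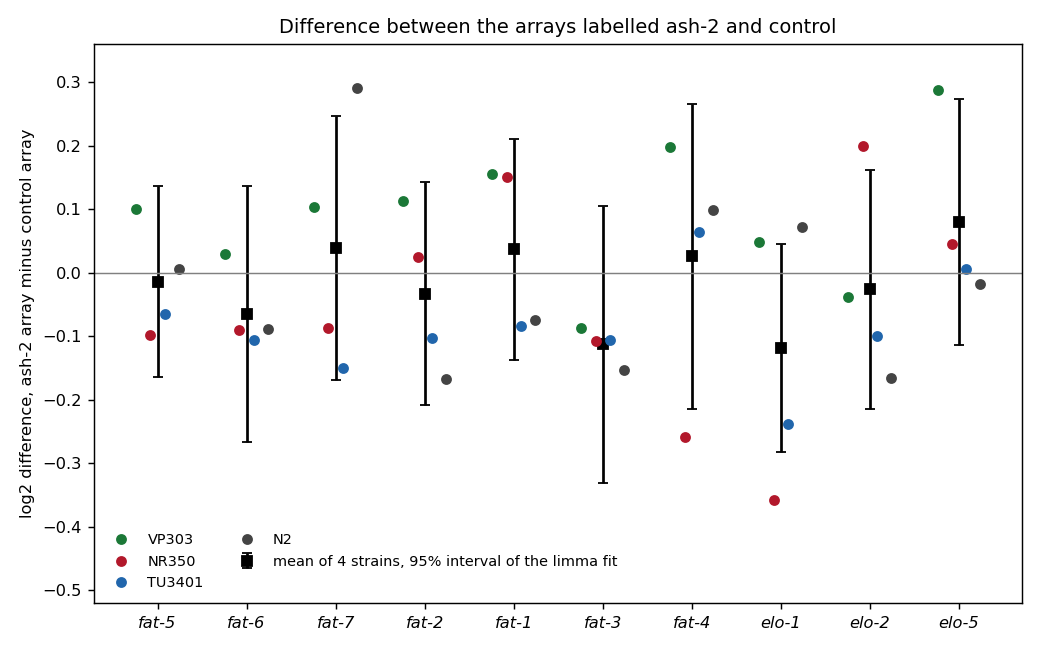
Log2 difference between the array labelled ash-2 and the control array for each of the 10 genes (horizontal axis), with coloured points for VP303, NR350, TU3401 and N2 and a black square with a bar for the mean of 4 strains and its 95% interval from limma. All intervals cross 0; fat-3 has its 4 points close together below 0, and elo-1 has 2 points above and 2 below 0.

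Within strains, where 1 array stood against 1 array with no test, the genes leaned in different directions. A difference of at least 1.2-fold was reached by 1 of the 10 genes in VP303 (elo-5), 1 in NR350 (elo-1), 0 in TU3401 and 1 in N2 (fat-7), against 7.92%, 9.47%, 11.9% and 10.6% of all features in those strains. In VP303, 8 of the 10 were higher and 2 lower on the array labelled ash-2, with a median log2 difference of 0.10. In TU3401, 2 were higher and 8 lower (median -0.10), in NR350 4 were higher and 6 lower (median -0.09), and in N2 4 were higher and 6 lower (median -0.05). The median over all features lay between -0.0034 and 0.0002 in these strains. The median of the 10 mean differences was -0.02, against -0.0028 for all features.

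Whether the response differed between the strains where RNAi would reach the intestine (VP303 and N2) and the others (NR350 and TU3401) was tested with the difference of the mean responses. None of the 10 passed (limma, smallest adjusted p = 0.668, for elo-1; 0% of features passed). At an unadjusted p under 0.05, 1 of the 10 did, against 5.74% of all features. For elo-1 the mean log2 response was 0.06 in VP303 and N2 and -0.30 in NR350 and TU3401, a difference of 0.36 (SE 0.10). For fat-7 it was 0.20 and -0.12, a difference of 0.31 (SE 0.17), with a limma adjusted p of 0.898.

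Lists of related genes, taken by known function, gave 0 calls of 57 for the treatment in limma, where 0% of all features passed. Of the 57, 49 genes belong to lipid metabolism and its regulation and 8 to the H3K4 list. The other elongases elo-3, elo-4, elo-6, elo-7, elo-8 and elo-9 had a median difference of 0.03. The highest was elo-3 (0.31, SE 0.10, limma adjusted p = 0.505), at 81.1, 78.6, 80.4 and 84.3 on the arrays labelled ash-2 of VP303, NR350, TU3401 and N2, against 73, 60.8, 69.9 and 59.6 on the control arrays, higher in 4 of 4 strains. Among 12 genes of fatty acid synthesis, the elongation cycle and electron donation (median 0.08), acly-1, an ATP citrate lyase (0.29), and fasn-1, the fatty acid synthase (0.24), were highest, while mlcd-1, a malonyl-CoA decarboxylase (-0.08), and hpo-19 (-0.03) were lowest. Among 18 regulators of desaturase genes the median was 0.14, with skn-1 (0.31) and mdt-15 (0.26) highest and nhr-64 (-0.04) and nhr-25 (-0.01) lowest. The level of sbp-1 differed by -0.01 and that of nhr-49 by 0.18. The 14 genes of phosphatidylcholine synthesis and lipid storage had a median of 0.02, with atgl-1, a lipase of fat droplets (0.10), and pmt-1 (0.09) highest and ckb-2 (-0.06) and pmt-2 (-0.03) lowest. For the H3K4 complex and its demethylase (8 genes) the median was 0.12, with ash-2 itself (0.63) and the demethylase gene rbr-2 (0.36) highest and dpy-30 (0.001) and rbbp-5 (0.005) lowest.

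More of these genes differed between strains than between treatments, and so did more of all features. For the treatment 0% of all features passed in limma, and for the 6 pairs of strains 0.604% to 7.18% did. Of the 10, elo-2 and elo-5 were higher in NR350 than in N2, fat-7 was lower in NR350 than in VP303, and, against NR350, fat-7 was higher and elo-5 lower in TU3401. These 5 differences were the calls of limma among 60 comparisons (10 genes in 6 pairs of strains) after adjustment over all features. Between the 2 strains compared, each of the 5 had the same direction on the arrays labelled ash-2 and on the control arrays. The calls rest on these same arrays, so this agreement is largely set by the selection. The same holds for the lack of overlap given below for called genes.

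In NR350, elo-2 had 1632 on the array labelled ash-2 and 1422 on the control array, against 856 and 960.4 in N2. Both NR350 arrays lay above both N2 arrays, and above the VP303 and TU3401 arrays as well. The fitted NR350 level exceeded that of N2 1.68-fold (log2 0.75, SE 0.12, limma adjusted p = 0.00362). VP303 and TU3401 fell between NR350 and N2, with log2 differences from N2 of 0.40 (SE 0.12, limma adjusted p = 0.251) and 0.37 (SE 0.12, limma adjusted p = 0.194). In the order NR350, VP303, TU3401, N2, no neighbouring strains passed the test.

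elo-5 had 1136 on the array labelled ash-2 and 1100.4 on the control array of NR350, against 750.4 and 759 in N2, without overlap. The NR350 level exceeded that of N2 1.48-fold (log2 0.57, SE 0.12, limma adjusted p = 0.0194). VP303 stood at a similar level, 1227 and 1005, and its difference from N2 was 0.56 (SE 0.12, limma adjusted p = 0.0951). TU3401 lay near N2, at 799.5 and 796: it was lower than NR350 by 0.49 (log2 -0.49, SE 0.12, limma adjusted p = 0.0405), which is a level 0.714 times that of NR350; without an intensity trend in the prior variance the adjusted p was 0.0585 and the call was lost. The difference between NR350 and VP303 was 0.01 (95% interval -0.27 to 0.28) and that between TU3401 and N2 0.08 (95% interval -0.19 to 0.35), both within their error.

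elo-6, which works with ELO-5 on branched-chain fatty acids, was also higher in NR350 than in N2: 201 and 187 on the NR350 arrays (labelled ash-2 and control), against 124 and 136 on the N2 arrays (log2 0.58, SE 0.15, limma adjusted p = 0.0407). The VP303 arrays were near NR350, at 173 and 178, and the TU3401 arrays, at 132 and 143, were close to N2. The other 5 elongases of the list did not pass, and 4 of the 6 had a mean log2 level of 5 or less.

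fat-7 showed the widest range of the 10 genes, 2.05-fold over the 8 arrays. It was 1.89-fold higher in TU3401 than in NR350 (58.4 and 64.8, against 31.6 and 33.6; log2 0.92, SE 0.13, limma adjusted p = 0.00248). It fell by 0.68 on the log2 scale in NR350 against VP303 (31.6 and 33.6, against 54.2 and 50.4; SE 0.13, limma adjusted p = 0.0131), a call lost without the trend (limma adjusted p = 0.0693). The NR350 values lie near the lower end of the scale, where folds are compressed. Against N2, fat-7 differed by 0.52 in TU3401 (SE 0.13, limma adjusted p = 0.117) and by -0.40 in NR350 (SE 0.13, limma adjusted p = 0.114). In the order TU3401, VP303, N2, NR350, no neighbouring strains passed.

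**Figure D3:**
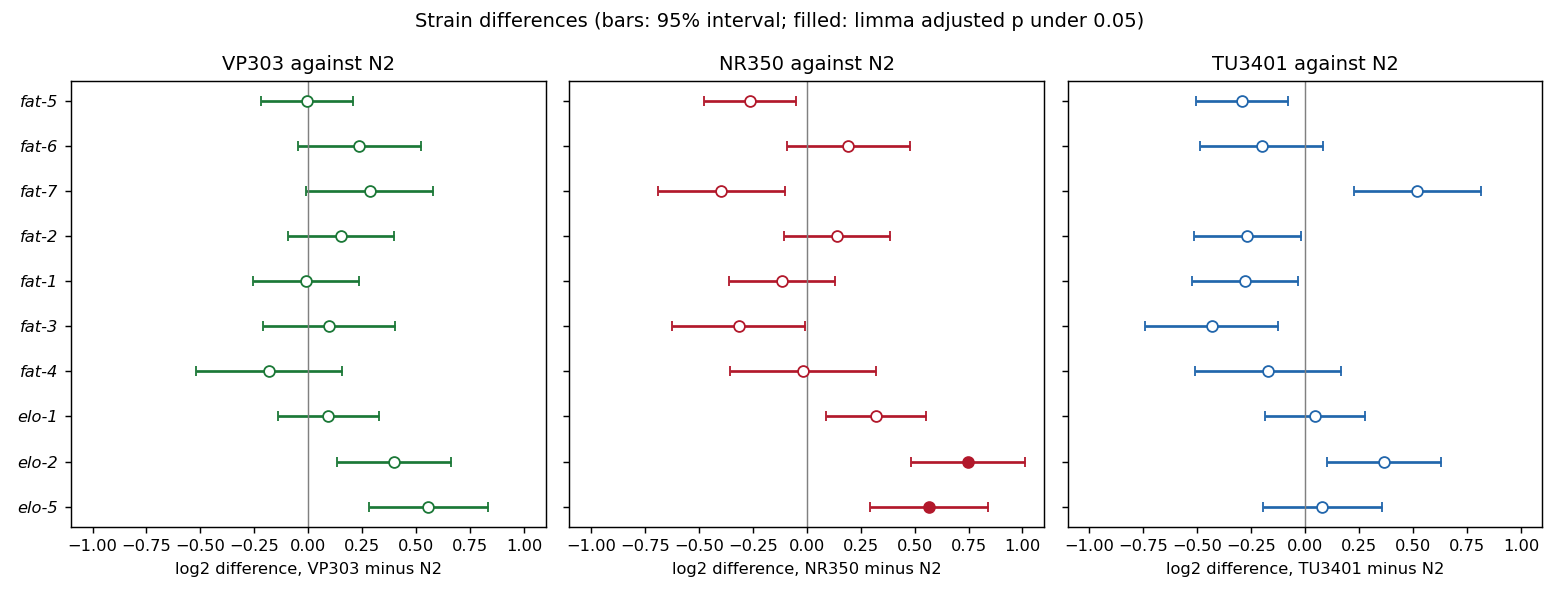
Log2 difference of each of the 10 genes (rows) in VP303, NR350 and TU3401 against N2, 1 panel per strain, with 95% intervals of the limma fit as bars and filled points where the adjusted p was under 0.05. The 2 filled points are elo-2 and elo-5 in NR350; fat-7 lies below 0 in NR350 and above 0 in TU3401.

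Across all features, differences between strains were common where NR350 was involved. In NR350 against N2, 2 of the 10 passed, both higher, where 7.18% of all features passed in either direction and 4.02% were higher; among features with a mean log2 above 5, where 9 of the 10 genes lie, it was 17.9%. In TU3401 against NR350, 2 of the 10 passed, 1 in each direction, against 6.74% of features (2.22% higher, 4.53% lower) and 16.3% of those above that level. In NR350 against VP303, 1 of the 10 was lower, against 5.18% of features in either direction, 2.35% lower, and 13.1% above that level. In VP303 against N2, TU3401 against N2 and TU3401 against VP303, 0 of the 10 passed, where 0.64%, 0.604% and 1.6% of features did. At an unadjusted p under 0.05 in limma, 2, 6 and 6 of the 10 did in those 3 comparisons, against 9.29%, 15.6% and 15.4% of all features. By the same measure 6 of the 10 passed in NR350 against N2, 4 in NR350 against VP303 and 6 in TU3401 against NR350, where 19.1%, 16.7% and 21% of features did. These unadjusted shares cover all features. The shares above a mean log2 of 5, where 9 of the 10 genes lie, are not given for this measure.

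Of the remaining desaturases, fat-1, fat-2, fat-3, fat-5 and fat-6 had their lowest strain mean in TU3401 and fat-4 in VP303, and none passed the test. fat-2 had 1042 and 1119 in TU3401 (labelled ash-2 and control), below the other 6 arrays, and differed from NR350 by -0.41 (SE 0.11, limma adjusted p = 0.0541), which passed under 4 alternatives (limma adjusted p from 0.0258 to 0.048). fat-6 had 462 and 497, also below the other 6 arrays, and differed from NR350 by -0.39 (SE 0.13, limma adjusted p = 0.104, but 0.0253 without an intensity trend) and from VP303 by -0.44 (SE 0.13, limma adjusted p = 0.135). The share of all features with both TU3401 arrays below the other 6 is not given here. fat-3 had 263 and 283 in TU3401 and 285 and 307 in NR350, below both VP303 and N2, and differed from VP303 by -0.53 in TU3401 (SE 0.14, limma adjusted p = 0.0984). Without an intensity trend, fat-3 passed as lower in both NR350 and TU3401 than in both VP303 and N2 (limma adjusted p from 0.0133 to 0.0447). With the trend, none of these fat-3 differences passed (limma adjusted p from 0.0984 to 0.248). The share of all features passing without the trend is not given here. fat-1 spanned only 1.31-fold and fat-4 1.31-fold over all arrays, and their strain differences from N2 were within 0.28 on the log2 scale. elo-1 in NR350 exceeded N2 1.25-fold (log2 0.32, SE 0.11, limma adjusted p = 0.103), and with quantile normalization its adjusted p was 0.0355. fat-5 differed from N2 by -0.26 in NR350 (SE 0.10, limma adjusted p = 0.151) and by -0.29 in TU3401 (SE 0.10, limma adjusted p = 0.194).

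The 10 genes did not form 1 profile across the arrays. Over the 8 arrays, which come as 4 pairs of a strain and share its background, Pearson's r was 0.96 between fat-2 and fat-6 and 0.93 between fat-3 and fat-5, but -0.64 between fat-2 and fat-7 and -0.54 between fat-6 and fat-7. elo-2 and elo-5 had an r of 0.74. In the RefSeq annotation of assembly WBcel235, fat-1 and fat-2 have 0 protein-coding genes between them, as do fat-3 and fat-4. The first of these neighbour pairs had an r of 0.77 and the other an r of -0.01.

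The features whose log2 profile was most like that of the 4 most variable genes were taken from 5719 features with 1 symbol. For fat-7 they were psf-1, a subunit of the GINS replication complex (r = 0.96), the transcription elongation gene spt-4 (0.96) and F14H3.3 (0.95). For elo-2 they were ads-1, which makes ether lipids (0.98), F15G9.1 (0.98) and F54D5.3 (0.98). The ads-1 signal was 175, 263, 153 and 83.1 on the arrays labelled ash-2 of VP303, NR350, TU3401 and N2, against 167, 236, 153 and 114 on the control arrays, so NR350 was highest and N2 lowest, as for elo-2. For elo-5 they were sdz-24 (0.99), C25F9.14 (0.98) and the cysteine synthase family gene cysl-1 (0.98). The sdz-24 signal was 213, 205, 71.5 and 68.9 on the arrays labelled ash-2, against 138, 188, 64.9 and 66.8 on the control arrays, which separates VP303 and NR350 from TU3401 and N2. For fat-3 they were the transthyretin-related gene ttr-51 (0.98), the homeobox gene ceh-20 (0.98) and shn-1 (0.97). The features were picked by their r with the gene, so a like order of strains is largely set by the choice. These values of r describe the 8 arrays and were not tested.

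Of the 49 related genes of lipid metabolism and its regulation, 8 were higher and 0 lower in NR350 than in N2, where 4.02% of all features were higher. All 8 were among the 41 with a mean log2 above 5, a level at which 17.9% of features passed in either direction. Counting either direction, 8 of 41 was near that share. All 8 were higher, however, and the share of features that were higher was not computed at that level. Of the 12 genes of synthesis and the elongation cycle, 3 rose: fasn-1, at 679 and 554 on the NR350 arrays (labelled ash-2 and control) against 369 and 333 on the N2 arrays (log2 0.81, SE 0.14, limma adjusted p = 0.00576), pod-2, the acetyl-CoA carboxylase (0.70, SE 0.16, limma adjusted p = 0.0253), and let-767, a reductase of the elongation cycle (0.67, SE 0.14, limma adjusted p = 0.0176). The lowest of that list were acly-2 (-0.38) and mlcd-1 (-0.14), and its median was 0.28, against 0.0008 for all features. All 12 had a mean log2 above 5, and a median of all features at that level is not given. The list median was also 0.27 in VP303 against N2, where 0 of the 12 passed, and -0.02 in NR350 against VP303. The raised median was thus not particular to NR350. Of 18 regulators, sbp-1 (0.62, SE 0.13, limma adjusted p = 0.0173) and daf-16, the FOXO factor of insulin signalling (0.61, SE 0.15, limma adjusted p = 0.0331), rose and 16 did not pass. sbp-1 had 77.7 and 87.4 on the NR350 arrays, against 56.4 and 51.3 on the N2 arrays, without overlap. The list median was 0.02, and nhr-25 (-0.30) and nhr-64 (-0.19) were lowest.

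Of 14 genes of phosphatidylcholine synthesis and lipid storage, 3 rose in NR350, sbp-1 again being among them. sams-1, which makes the methyl donor S-adenosylmethionine, had 1214.5 and 1419 on the NR350 arrays (labelled ash-2 and control), against 639.7 and 558 on the N2 arrays (log2 1.14, SE 0.14, limma adjusted p = 0.000613). pmt-1, a phosphoethanolamine methyltransferase, differed by 0.62 (SE 0.13, limma adjusted p = 0.016), and plin-1 (-0.18) and acs-22 (-0.12) were lowest. None of the 8 genes of the H3K4 list passed (median -0.07, from -0.44 for wdr-5.1 to 0.26 for ash-2, limma adjusted p from 0.108). In TU3401 against NR350, 5 of the 49 were lower and 0 higher, all 5 among the 41 above that level, against 4.53% of all features lower and 16.3% passing in either direction above that level: sams-1 (-0.91), fasn-1 (-0.69), daf-16 (-0.64), daf-12 (-0.60) and pmt-1 (-0.55), with limma adjusted p between 0.00299 and 0.0383.

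**Figure D4:**
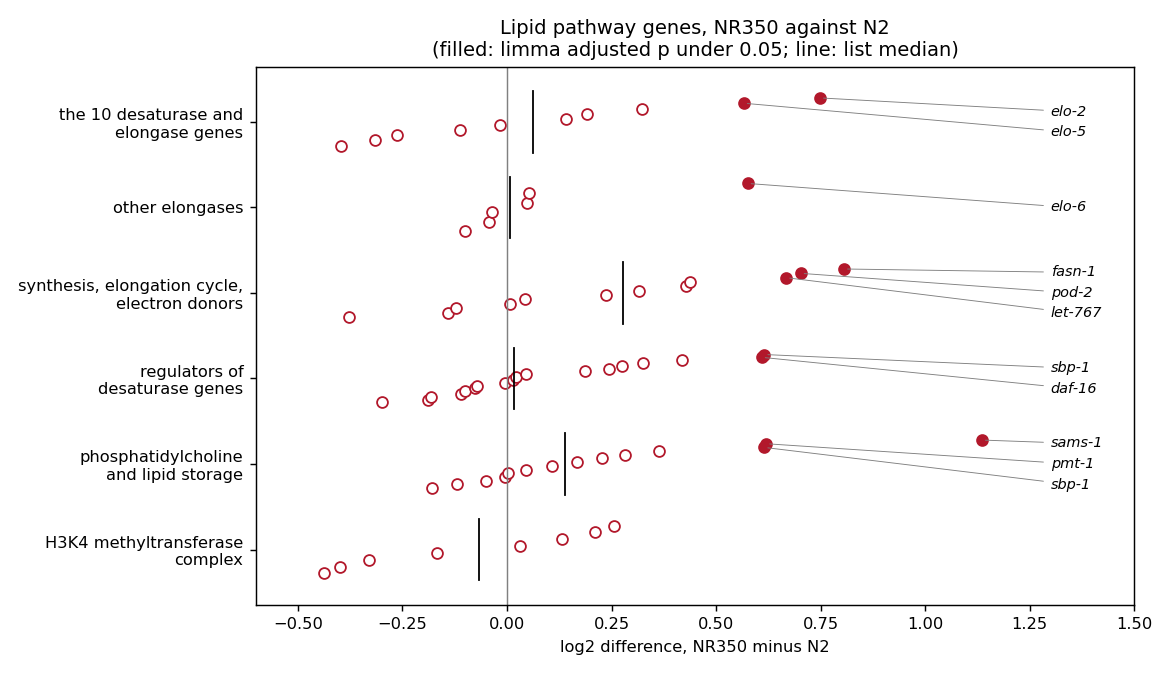
Log2 difference between NR350 and N2 for the 10 desaturase and elongase genes and 5 lists of related genes (rows), 1 point per gene, filled and named where the limma adjusted p was under 0.05, with a vertical line at the median of each list. All filled points lie right of 0, from 0.57 for elo-5 to 1.14 for sams-1, and sbp-1 stands in 2 lists.

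On every array at least 7 of 9 intestine, 7 of 10 muscle, 7 of 10 hypodermis, 6 of 10 neuron and 10 of 10 germ line markers lay at 32 or more. Markers of several tissues moved with NR350 as well. Of 10 muscle markers 7 were higher and 0 lower in NR350 than in N2, of 10 hypodermis markers 5 (rol-6 among them) and 0, of 9 measured intestine markers 6 and 1 (cpr-6 fell by 0.56), of 10 neuron markers 0 and 0, and of 10 germ line markers 0 and 1. Of all features, 7.18% passed in either direction in that comparison, and 17.9% of those with a mean log2 above 5. The summed muscle signal was 8310 and 7709 in NR350 (labelled ash-2 and control), against 5076 and 4272 in N2, and the summed intestine signal 5552 and 5652, against 5248 and 5233. Of the intestine sums, cpr-6 alone gave 2096 and 2139 in NR350, against 3068 and 3176 in N2. The median log2 difference from N2 was 0.68 for the intestine list and 0.68 for the muscle list. For the hypodermis the sums were 5263 and 5031 in NR350, against 3820.3 and 3109 in N2. In whole-animal RNA, fewer cells of a type and less RNA per cell cannot be told apart, and the part of tissue make-up in the differences of elo-2, elo-5 and fat-7 was not tested. In NR350 against VP303, where fat-7 was lower, 7 of 10 muscle, 4 of 9 intestine, 3 of 10 hypodermis, 1 of 10 neuron (egl-3) and 1 of 10 germ line markers (gld-1) were higher. There 5.18% of all features passed in either direction, and 13.1% of those with a mean log2 above 5. The 1 lower marker was rol-6 of the hypodermis list, which is the transgene marker of VP303 (42.0 and 50.4 in NR350, against 4317 and 4859 in VP303). In TU3401 against NR350, 7 of 10 muscle, 6 of 10 hypodermis (rol-6 among them), 3 of 9 intestine and 2 of 10 neuron markers were lower, and none of these 4 lists had a higher member. Of 10 germ line markers, nos-2 (0.51) and pie-1 (0.60) were higher and gld-1 (-0.42) was lower, and of 6 yolk and adult markers col-19 was lower (-0.93). In TU3401 against NR350, 6.74% of all features passed in either direction, and 16.3% of those with a mean log2 above 5. The yolk and adult markers, which bear on the stage of the worms, gave 1 of 6 higher in NR350 than in N2 (col-19, 0.85) and a median of -0.26. Between treatments, 0 of these 6 passed limma, as did 0% of all features, with a median difference of 0.295 against -0.0028 for all features. Summed, they gave 17298, 17226, 17839 and 20912 on the arrays labelled ash-2 of VP303, NR350, TU3401 and N2. The control arrays gave 14965, 16113, 14186 and 15743. The part of stage in the treatment differences was not tested. Of the genes used in the transgenes, rol-6 was highest in VP303, sur-5 in NR350 (4245 and 4214, against 319 and 272 in N2) and sid-1 in TU3401. The rde-1 signal was highest in VP303, at 339 and 305 (labelled ash-2 and control), against 61.3 and 56.0 in N2. In NR350, at 51.6 and 49.6, rde-1 was not higher than in N2.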

How the data were processed

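Per the series' design text, images were processed with GeneChip Command Console 2.0 and GeneSpring GX 11.0.2, and the submitters' processing notes name RMA. The deposited values are intensities normalized by the authors, linear and not logged. Neither a genome build nor an offset is stated, so no coordinates are printed. Tests used log2 of the intensity, unfiltered.

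Strain and treatment follow the labels. The treatment test had strain as block, leaving 3 residual degrees of freedom, strain pairs in the same model, and the class difference with a treatment term per class (2 residual degrees of freedom). limma 3.58.1 (eBayes with trend, two-sided) in R 4.3.3 was used, with Benjamini-Hochberg adjustment over 27792 features and a threshold of 0.05. The arrays of a strain share that strain, and their deviations from the treatment means correlated at 0.574 in VP303, 0.839 in NR350, 0.525 in TU3401 and 0.684 in N2, over 8648 features with a mean log2 above 5. The scripts were checked on simulated data.

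Named genes are the 10 genes, the highest and lowest 2 and the called members of each list, and the 3 most correlated features (mean log2 above 5, range at least 0.5) for the 4 most variable genes. Of the lists, opt-2 and vit-3 were not matched. The 10 genes and the lists were chosen with earlier results of these data known. Number of arrays limits the precision.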

Additional observations from a re-analysis of the deposited data

Results flagged for a closer look

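In 3 genes the difference between the arrays labelled ash-2 and control had 1 sign in both VP303 and N2 and the other sign in both NR350 and TU3401, as 12.3% of all features did. The response of VP303 and N2 minus that of NR350 and TU3401 was 0.36 for elo-1 (limma adjusted p = 0.668), 0.31 for fat-7 (0.898) and 0.13 for fat-5 (limma adjusted p = 0.952), so the tested differences did not pass. fat-5 lies near the lower end of the scale.

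For fat-6, the difference in VP303 (0.029) stood apart from those in NR350 (-0.09), TU3401 (-0.11) and N2 (-0.09). It was picked by the gap to its nearest neighbour over the range of the 4 values (Dixon's ratio), a measure set to pick about 1 in 20 groups by chance. The cause was not tested.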

How the results depend on the processing

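With 0 of the 10 genes called for the treatment, and 0 for the class difference, no alternative added a call: quantile normalization, median centring, features with a mean log2 above 5, eBayes with no trend, a robust prior, only features with 1 symbol, an adjusted p under 0.10, log2 of the intensity minus 16, leaving out each strain, and, for the treatment, no strain block (0 called without the pairing). elo-2 and elo-5 in NR350 against N2 and fat-7 in TU3401 against NR350 passed under all alternatives run. Without trend, fat-7 in NR350 against VP303 (limma adjusted p = 0.0693) and elo-5 in TU3401 against NR350 (0.0585) did not pass. fat-2 in TU3401 against NR350 passed with median centring (0.048), with features above a mean log2 of 5 (0.0258), with 1-symbol features (0.0444) and with 16 subtracted (0.0473, limma adjusted p). Other counts moved: with features above a mean log2 of 5, where fewer are tested, 1 was called in VP303 against N2, 2 in TU3401 against VP303 and 5 in TU3401 against NR350. At an adjusted p under 0.10 they were 1, 2 and 4. Without trend they were 1 in TU3401 against N2 and 1 in TU3401 against VP303 (fat-3 in both) and 3 in NR350 against N2, fat-3 being added, while fat-3 took the place of fat-7 in NR350 against VP303 and fat-6 that of elo-5 in TU3401 against NR350. With quantile normalization there were 3 in NR350 against N2, elo-1 being added. Leaving out a strain kept all strain counts between 0 and 2. The share of all features called under each of these settings is not given here, so these counts cannot be set against it. Signs turned for small differences that did not pass, for which the cause was not tested. Under quantile normalization these were fat-4 in NR350 against N2 (0.039), fat-2 (0.043) and fat-6 (0.0028) in NR350 against VP303, elo-2 in TU3401 against VP303 (0.023) and fat-5 in TU3401 against NR350 (0.0043), and with median centring fat-4 in TU3401 against VP303 (-0.0046). For the treatment, leaving out a strain turned the sign of fat-1 (range -0.0029 without VP303 to 0.077, and -0.0013 without NR350), fat-2 (-0.082 to 0.012, without N2), fat-4 (-0.032, without VP303, to 0.12), fat-5 (-0.052 to 0.014, without NR350, and 0.003 without TU3401), fat-7 (-0.045, without N2, to 0.10) and elo-2 (-0.10 to 0.020, without N2). Averaging several features of a gene gave nothing new, since each gene had 1.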
